A study of Mus musculus with 6 samples.

Results

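Bcas1, Ugt8a, Ermn, Mbp, Mag and Mobp are genes of myelin and of the oligodendrocytes that make it. They were chosen by name and are 6 of the 329 gene symbols counted in these libraries. The cells came from hypothalami of C57/Bl6 mice with the genotype KLB-CRE; Ai14, in which Cre driven by the Klb gene switches on the red reporter tdTomato. They were sorted for tdTomato and viability, and every library shares this genotype, strain and sort, so the design has no treated or control group. The reporter marks a cell whose lineage expressed Cre at any time, 3 hypothalami were pooled in each of 3 captures so that animals cannot be told apart, and the labels give no age.

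Oligodendrocytes wrap axons in myelin, a stack of membrane layers rich in galactolipids and in a few proteins that hold the layers together. Bcas1 marks oligodendrocytes that are newly forming myelin and is kept by many mature ones. Ugt8a encodes the enzyme that makes galactosylceramide, the main glycolipid of myelin, and Ermn encodes ermin, a cytoskeletal protein of mature oligodendrocytes. Mbp encodes myelin basic protein, which compacts the layers from the cytoplasmic side and whose mRNA is carried into the processes of the cell. Mag encodes a glycoprotein on the membrane that faces the axon, and Mobp encodes a small protein of compact myelin.

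RNA was counted with targeted primer panels on the BD Rhapsody system, which tags each captured mRNA molecule with a unique molecular identifier (UMI) before amplification. A larger gene set, with Bcas1, Ugt8a and Ermn, was counted in panel 2 of replicates 1, 2 and 3 and in panel 1 of replicate 1. Mbp was counted with that set in panel 2 of replicate 3. A smaller set, with Mag and Mobp, was counted in panel 1 of replicates 2 and 3. For replicate 3 its counts were read from the table labelled panel 2, which holds both sets, because the table labelled panel 1 holds the same counts under names of the larger set. They are called panel 1 here for the set they carry. In replicate 3, 2 barcodes had counts of both sets. No other cell was matched between panels, so Mag and Mobp could not be related to the other 4 genes cell by cell. Bcas1 was read by 1 amplicon named for transcript NM_001164369.1, Ermn by 1 for NM_029972.3, Mbp by 1 for NM_001025255.2, Mag by 1 for XM_011250438.2 and Mobp by 1 for NM_001039364.2. Ugt8a was read by 2 amplicons of NM_011674.4, one at a first polyadenylation site and one at the end of the reference transcript.

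Barcodes with at least 20 UMIs and 5 genes were kept as cells, which gave 1253 cells of 1858 barcodes. The 2 barcodes of replicate 3 with counts of both sets are counted in each set. Panel 1 of replicate 1 held 950 cells with a median of 51 UMIs. The other libraries held 25 to 104 cells with medians of 115.5 to 1352 UMIs. The most abundant gene was Bcas1 in panel 1 of replicate 1, Fcer1g in the 3 panel 2 libraries and C1qa in the 2 libraries of the smaller set, where it took 85.0% and 92.7% of UMIs. Fcer1g and C1qa are genes of microglia. Klb itself, the gene named by the labelled cell population, had no UMI in 1124 cells of the larger set, which allows a share of cells with a UMI of up to 0.267% and sets no limit on cells that express it. Shares are given with exact Clopper-Pearson 95% intervals and levels with exact Poisson 95% intervals, and both cover counting error only, as do the limits of 3 counts given for values of 0. The libraries allow no test of a condition on these genes, and all comparisons are descriptions of libraries and cells.

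Bcas1 was found in nearly every cell of every library that counted it. All 44 cells from panel 2 of replicate 1 had it, with 1, 8 and 274 UMIs in the lowest, median and highest cell. So did all 43 cells in replicate 2, with 3, 14 and 536 UMIs, and all 87 in replicate 3, with 4, 11 and 445 UMIs. Panel 1 of replicate 1 had it in 916 of its 950 cells (96.4%, 95.0 to 97.5), with 0, 3 and 80 UMIs. Bcas1 thus had UMIs in almost all cells, while its highest cells lay far above its median in each library.

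The level of Bcas1 differed between captures. It was 95.8 UMIs per 1000 UMIs of the library in panel 2 of replicate 1 (90.2 to 102), 23.1 in replicate 2 (22.1 to 24.2) and 15.5 in replicate 3 (14.8 to 16.2), a mean of 44.8 ± 44.3 (SD, n = 3). Its level in panel 1 of replicate 1 was 60.5 (59 to 62). The 2 libraries of replicate 1 were highest, and no pair of intervals overlapped. Taken cell by cell, replicates 2 and 3 were close: the median cell had 9.74 Bcas1 UMIs per 1000 in replicate 2, with quartiles of 7.90 and 11.6, and 9.99 in replicate 3, with quartiles of 8.32 and 11.8. The median cell of replicate 1 had 72.8 in panel 2 and 48.6 in panel 1. Bcas1 ranked first among the 157 detected genes of panel 1 of replicate 1, and in panel 2 it ranked 2 of 50, 12 of 93 and 18 of 120 in replicates 1, 2 and 3. A level is a share of all UMIs, so it moves with the other genes of the library, whose number detected was lowest in panel 2 of replicate 1.

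**Figure D1:**
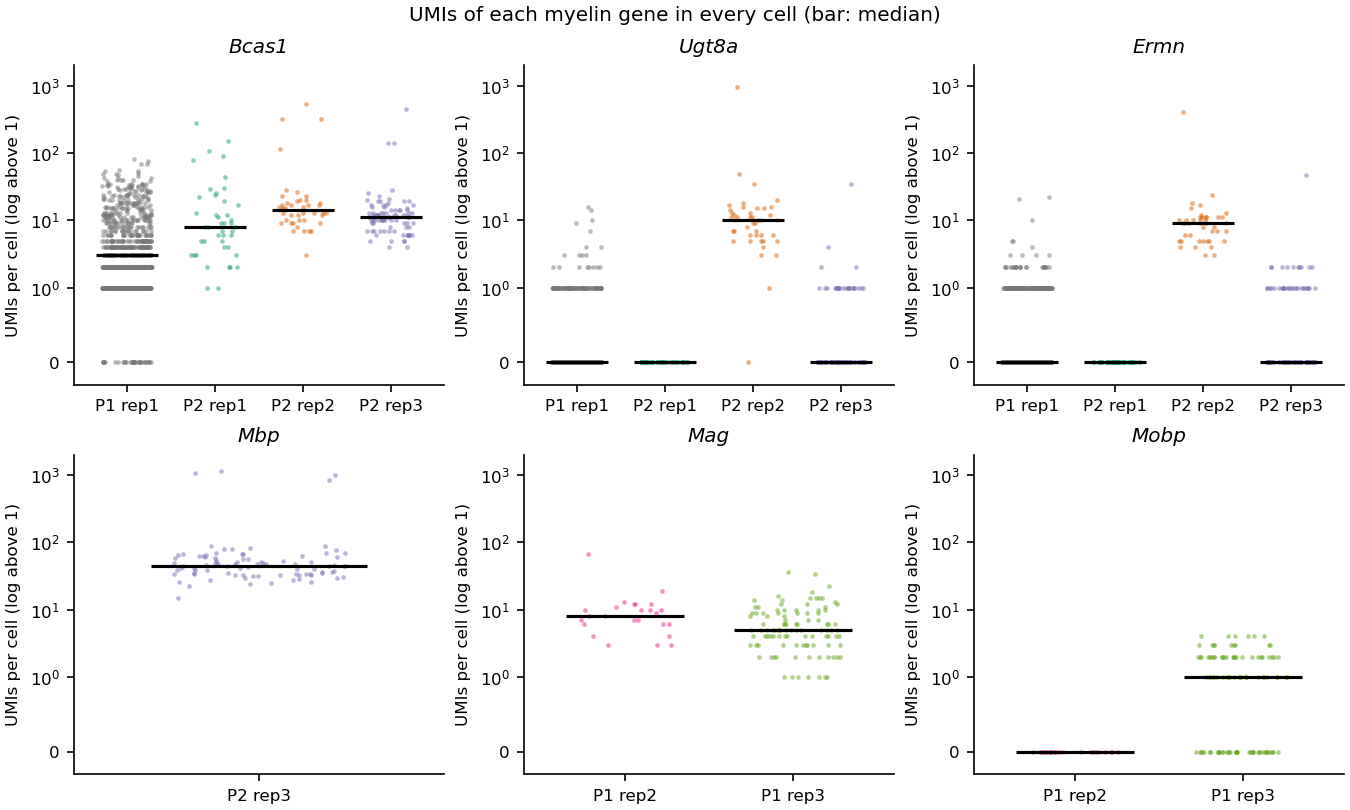
UMIs of each gene in every kept cell (vertical axis, logarithmic above 1) by library (horizontal axis; P is panel, rep is replicate), with 1 point per cell and a bar at the median. Bcas1 in panel 2 of replicates 2 and 3, Mbp and Mag have narrow clouds with a few cells far above them, and Ugt8a and Ermn are at 0 in all 44 cells of panel 2 of replicate 1.

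Mbp, counted in 1 library, was the second most abundant of its 120 detected genes. It was in 87 of 87 cells (95.8% or more by the exact interval), and its 7878 UMIs were 72 per 1000 of the library (70.4 to 73.6). The lowest cell had 15 UMIs, the median cell 45 and the upper quartile 60.5, and then 4 cells stood apart with 845, 995, 1063 and 1128 UMIs. These 4 cells held 51.2% of all Mbp UMIs. The middle of the distribution was narrow, with quartiles of 34.6 and 46 UMIs per 1000 around a median of 39.6. With cells thinned at random to 35 UMIs, which removes differences in depth, Mbp was found in 80.5% of cells and Bcas1 in 23% of the same cells. Amplicons differ in efficiency, so this order is of counted UMIs and not of transcripts.

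Ermn was in every cell of one library and in none of another. None of the 44 cells from panel 2 of replicate 1 had it, which limits the share to 6.82%. All 43 cells in replicate 2 had it, as did 35 of 87 cells in replicate 3 (40.2%, 29.9 to 51.3). Panel 1 of replicate 1 had Ermn in 169 of its 950 cells (17.8%, 15.4 to 20.4). The levels were 0, 9.78 and 0.831 UMIs per 1000 in panel 2 of replicates 1, 2 and 3, a mean of 3.54 ± 5.42 (SD, n = 3), and 2.46 in panel 1 of replicate 1. The SD over captures exceeded the mean. The 778 Ermn UMIs of replicate 2 included 407 in 1 cell, and the 91 of replicate 3 included 47 in 1 cell. Without that cell the level was 5.45 in replicate 2 and 0.414 in replicate 3, so the order of the panel 2 libraries was the same and both levels were lower. The place of replicate 1 in the order depends on the panel: its panel 2 was lowest of all, and its panel 1 was above replicate 3.

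Ugt8a had the same order of libraries as Ermn. None of the 44 cells from panel 2 of replicate 1 had it, with the same limit of 6.82%. In replicate 2 it was found in 42 of 43 cells (97.7%, 87.7 to 99.9), and in replicate 3 in 26 of 87 (29.9%, 20.5 to 40.6). Panel 1 of replicate 1 had Ugt8a in 108 of its 950 cells (11.4%, 9.42 to 13.6). The levels were 0, 17.5 and 0.594 UMIs per 1000 in panel 2, a mean of 6.02 ± 9.92 (SD, n = 3), and 1.71 in panel 1 of replicate 1. One cell of replicate 2 held 935 of its 1390 Ugt8a UMIs, and one cell of replicate 3 held 35 of 65. Without that cell the level was 6.68 in replicate 2 and 0.287 in replicate 3.

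The 2 libraries of replicate 1 came from 1 capture, and Ugt8a and Ermn differed between them. Against the floor of 3 counts in the library, Ugt8a was at least 6.52-fold lower and Ermn at least 9.36-fold lower in panel 2 than in panel 1 of replicate 1. At the levels of panel 1, the depth of panel 2 would have held 19.6 UMIs of Ugt8a and 28.1 of Ermn. Both genes were among many listed at 0 there, since 50 of 265 genes were detected in panel 2 of that replicate and 157 of 265 in panel 1. These 2 libraries were made with different pipeline versions and hold different numbers of cells, and the part of these differences in the result was not tested.

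The 2 amplicons of Ugt8a were used in unequal proportions across libraries. The site at the first polyadenylation signal took 101 of 181 UMIs in panel 1 of replicate 1 (55.8%, 48.2 to 63.2). It took 913 of 1390 in panel 2 of replicate 2 (65.7%, 63.1 to 68.2) and 16 of 65 in panel 2 of replicate 3 (24.6%, 14.8 to 36.9). Replicate 3 was the one library with more UMIs at the end of the reference transcript. Without the top cell of each library the shares were 54.5%, 64.8% and 16.7%, the last from 30 UMIs with an interval of 5.64 to 34.7. In replicate 2 the proportion was nearly the same in the top cell, with 618 and 317 UMIs, as in the other cells.

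Mag was in every cell of the smaller set. All 25 cells from panel 1 of replicate 2 had it, with 3, 8 and 67 UMIs in the lowest, median and highest cell, and so did all 104 in replicate 3, with 1, 5 and 36 UMIs. The levels were 10.3 UMIs per 1000 (9.09 to 11.6) in replicate 2 and 9.18 (8.52 to 9.88) in replicate 3, a mean of 9.73 ± 0.780 (SD, n = 2). The intervals overlapped, and the median cells had 7.34 and 7.65. C1qa took most UMIs of both libraries, and the likeness of the Mag levels depended on it. With C1qa removed from the total, Mag was 68.5 per 1000 in replicate 2 (60.6 to 77.3) and 125 in replicate 3 (116 to 135), and these intervals did not overlap.

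None of the 25 cells from panel 1 of replicate 2 had Mobp, which limits the share to 12%, and 65 of 104 cells in replicate 3 had it (62.5%, 52.5 to 71.8). It had 126 UMIs in replicate 3, at most 4 in a cell, for a level of 1.64 per 1000 (1.36 to 1.95). The level of 0 in replicate 2 had an upper bound of 0.142, below that interval. Mobp and Mag therefore differed in pattern: Mag was in all cells of both captures, and Mobp was in cells of one capture alone. Replicate 2 had 14 of 75 genes detected and replicate 3 had 27, so Mobp was one of many genes at 0 in replicate 2. In replicate 3 the deeper cells had Mobp in 76.9% and the shallower cells in 48.1%, while the level was 1.62 in the deeper and 1.68 in the shallower cells.

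**Figure D2:**
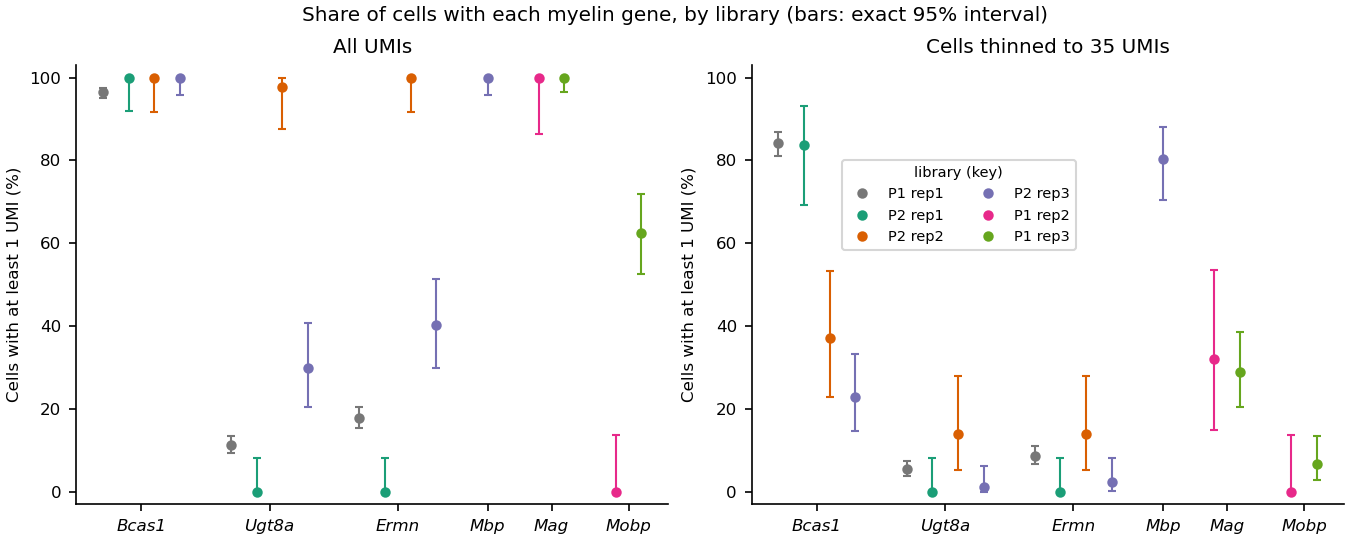
Share of cells with at least 1 UMI of each gene (vertical axis, percent) by gene and library (horizontal axis, colours), from all UMIs on the left and with each cell thinned to 35 UMIs on the right; bars are exact 95% intervals. After thinning, Bcas1 stays above 80% in both libraries of replicate 1 and is 37.2% and 23% in panel 2 of replicates 2 and 3.

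Thinning lowers the share of cells with a UMI by construction, and the share of Bcas1 still differed between captures after it. Thinned to 35 UMIs, Bcas1 was found in 83.7%, 37.2% and 23% of the panel 2 cells in replicates 1, 2 and 3, and in 84.2% in panel 1 of replicate 1. Ermn was in 0%, 14% and 2.30% in panel 2 and in 8.70% in panel 1 of replicate 1, and Ugt8a was in 0%, 14% and 1.15% and in 5.43%. Mag was in 32% and 28.8% of thinned cells in replicates 2 and 3, and Mobp in 0% and 6.73%. Thinning left out 306 of the 950 cells of panel 1 of replicate 1 and 1 cell of panel 2 of replicate 1. The thinned shares of Ermn, Ugt8a and Mobp rest on a few cells each.

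The spread of the members among cells lay partly in a few cells and differed between members. Chi-square per degree of freedom, which is 1 when a gene takes the same share of every cell's UMIs and varies only by counting, was 76.9 for Bcas1 in panel 2 of replicate 2 and 26.4 in replicate 3. Without the cells above 3 times the median level, 4 in replicate 2 and 3 in replicate 3, it was 1.08 and 1.03. Removing the highest cells lowers this value by construction. For Ermn in replicate 2 it was 22.1 with all cells and 0.838 without 1 cell, and for Mbp it was 119 and 2.57 without 4 cells. For Ugt8a in replicate 2 it was 76.4 with all cells and 3.1 without 1 cell. No such limit could be set where the median cell was at 0, and there all cells gave 7.91 and 4.68 for Ugt8a and 3.48 and 9.79 for Ermn in panel 1 of replicate 1 and panel 2 of replicate 3. In replicate 1 the spread of Bcas1 remained larger without such cells, at 5.50 in panel 2 and 2.28 in panel 1. Mag had 11.8 and 3.51 in replicates 2 and 3, and 1.58 and 1.25 without 1 and 5 cells, and Mobp had 1.06 with all cells.

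**Figure D3:**
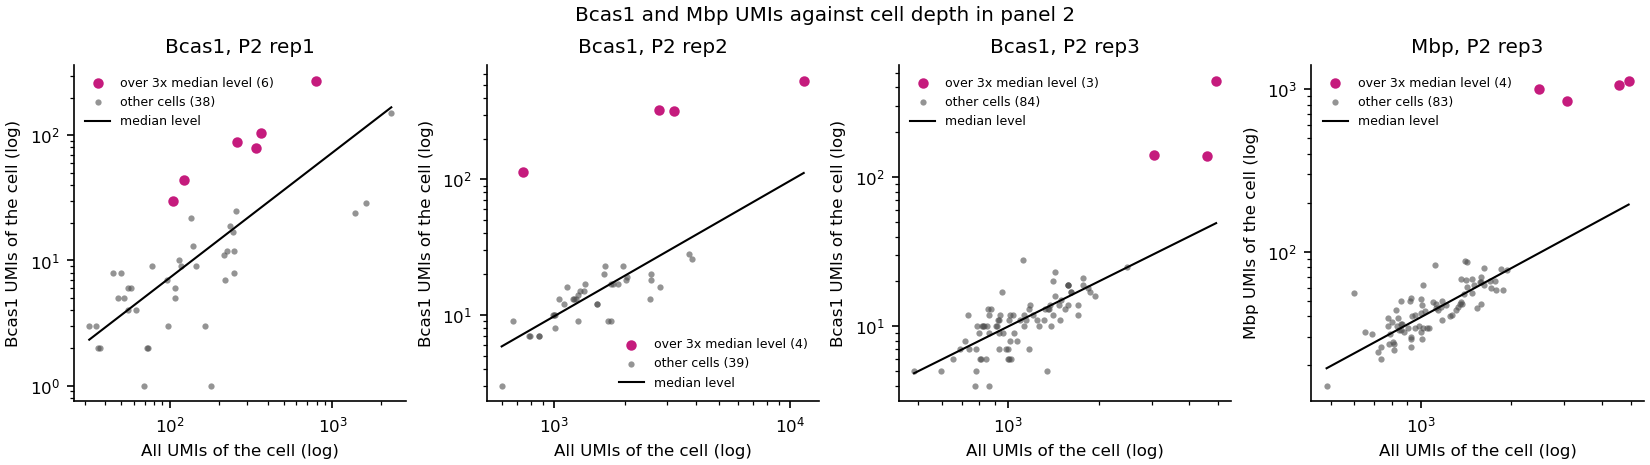
Bcas1 or Mbp UMIs of a cell (vertical axis, logarithmic) against all its UMIs (horizontal axis, logarithmic) in the panel 2 libraries, with 1 point per cell and a line at the median level. Most cells of replicates 2 and 3 lie along the line, and 4 and 3 cells lie above 3 times the median level of Bcas1 and 4 above that of Mbp.

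In panel 2 of replicate 2, the cells above 3 times the median level of a gene, a limit set after the values were seen, centred on 1 barcode. That barcode had 11434 UMIs, the most of its library, with 935 of Ugt8a, 536 of Bcas1 and 407 of Ermn. It also had 508 UMIs of Fgfr2, a fibroblast growth factor receptor expressed in the oligodendrocyte lineage, against 204 in the other 42 cells together. The other 3 Bcas1-high cells had 323, 321 and 114 Bcas1 UMIs with totals of 2788, 3231 and 741. Their Ugt8a levels, 12.2 to 15.2 UMIs per 1000, were below 3 times the median of 5.70, and their Ermn levels, 5.4 to 7.43, were near the median of 5.4. So by this limit 1 cell of this capture was high in all 3 genes and 3 cells were high in Bcas1 alone. The Ugt8a levels of these 3 cells were still above the upper quartile of the library, 9.08.

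In panel 2 of replicate 3, 3 cells were high in both Bcas1 and Mbp. They had 139 Bcas1 and 1063 Mbp UMIs of 4589, 445 and 1128 of 4924, and 140 and 845 of 3066. The cell with 445 Bcas1 UMIs held 35 of the 65 Ugt8a UMIs and 1 Ermn UMI. The cell with 140 Bcas1 UMIs held 47 of the 91 Ermn UMIs and 1 Ugt8a UMI. The cell with 139 Bcas1 UMIs had 4 of Ugt8a and 2 of Ermn. High Ugt8a and high Ermn were thus in different cells here, unlike in replicate 2.

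One more cell of that library was high in Mbp and not in Bcas1. It had the highest Mbp level of all, 401 UMIs per 1000, with 995 of 2483 UMIs. Its Bcas1 level was 10.1 per 1000, near the library's median, and it had no UMI of Ugt8a and 2 of Ermn. It also had 53 UMIs of Gfap, a gene of astrocytes, against 5 to 12 in the 3 cells above.

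In panel 2 the high cells were deeper than the rest and had a smaller share of Fcer1g. The 4 Mbp-high cells had a median of 3828 UMIs, against 1033 in the other 83, and the 4 Bcas1-high cells of replicate 2 had 3010, against 1335 in the other 39. Per 1000 UMIs of genes other than the members, Fcer1g was 61.9 in the 4 Mbp-high cells and 114 in the rest of replicate 3, 38.6 in the 4 Bcas1-high cells and 101 in the rest of replicate 2, and 88.5 in the 6 Bcas1-high cells and 140 in the rest of panel 2 of replicate 1. On the same scale Cspg4, a proteoglycan gene of oligodendrocyte precursors, was 14.2 in the Mbp-high cells and 9.14 in the rest of replicate 3, 9.53 in the Bcas1-high cells and 5.02 in the rest of replicate 2, and 31.5 and 49.3 in panel 2 of replicate 1. Markers of other cell types were also higher in the Mbp-high cells than in the rest. Gad2 of inhibitory neurons was 2.45 and 1.41, Acta2 of mural cells 5.79 and 4.17, and Rarres2, on the ependymal list, 13.2 and 9.86. Gfap was 7.65 and 1.90, but 53 of its 78 UMIs were in the 1 cell not high in Bcas1. In the 3 Bcas1-high cells of replicate 3 Gfap was 2.86, against 2.45 in the other 84. The part of depth and of doublets in these cells was not tested.

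In panel 1 of replicate 1 the Bcas1-high cells were near the rest in depth. There 95 of 950 cells were above 3 times the median level and held 30.2% of Bcas1 UMIs, with a median depth of 57 UMIs, against 50 in the other 855 cells. The depth and the minimum of 20 UMIs both count Bcas1 itself. Some of the 95 cells were therefore kept only through their Bcas1 UMIs, such as a cell with 17 of 21. Their number, their part of the Bcas1 UMIs and their depth follow partly from that limit. Ermn was in 14 of these 95 cells and in 155 of the other 855, and Ugt8a in 8 and in 100. By level, Ermn was at 4.96 UMIs per 1000 in the 95 cells and 2.27 in the rest, and Ugt8a at 2.28 and 1.67. In the 95 cells, 1 cell held 21 of the 37 Ermn UMIs and 1 held 10 of the 17 Ugt8a UMIs. Per 1000 UMIs of genes other than the members, Fcer1g was 26.1 in the 95 cells and 28.9 in the rest. The cell with the highest Ugt8a level was shallow, with 16 Ugt8a UMIs of 37. Just inside the limit of 20 UMIs, 129 barcodes with 20 to 24 UMIs had Bcas1 in 88.4%, and just outside it, 149 barcodes with 15 to 19 UMIs had it in 82.6%.

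The Mag-high cells did not have more Mobp. The 5 Mag-high cells of replicate 3 had a Mobp level of 1.32 per 1000, against 1.65 in the other 99, with 5 Mobp UMIs in all. In replicate 2 the 1 Mag-high cell had 67 Mag UMIs of 1198, and the next cell had 19. Its C1qa level was 896 per 1000 UMIs of the genes other than members, against 857 in the other 24 cells. Cx3cr1, another gene of microglia, went the other way, at 15.92 against 28.98. In replicate 3 both directions were reversed. There C1qa was 928 in the 5 Mag-high cells and 937 in the other 99, and Cx3cr1 was 29.28 and 22.08.

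Across the cells of a library, most pairs of members had positive correlations in panel 2 of replicates 2 and 3, and those of panel 1 of replicate 1 were near 0. The correlations are of log2 counts scaled to the median total, across cells that share a library and its depth. In the 43 cells of replicate 2, Pearson r was 0.61 for Bcas1 and Ugt8a, 0.59 for Ugt8a and Ermn and 0.36 for Bcas1 and Ermn. Without the 4 high cells these were 0.57, 0.29 and 0.28, so the first was little changed. In the 87 cells of replicate 3, r was 0.57 for Bcas1 and Mbp, 0.48 for Bcas1 and Ugt8a, 0.33 for Ugt8a and Mbp and 0.29 for Ermn and Mbp, and without the 4 high cells 0.18, 0.22, 0.21 and 0.04. For Bcas1 and Ermn in that library r was 0.11 with all cells and -0.18 without the 4, and for Ugt8a and Ermn it was -0.01 either way. In the 950 cells of panel 1 of replicate 1 the 3 pairs had r of -0.04, 0.01 and -0.02. Mag and Mobp had r of 0.07 in the 104 cells of panel 1 of replicate 3.

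**Figure D4:**
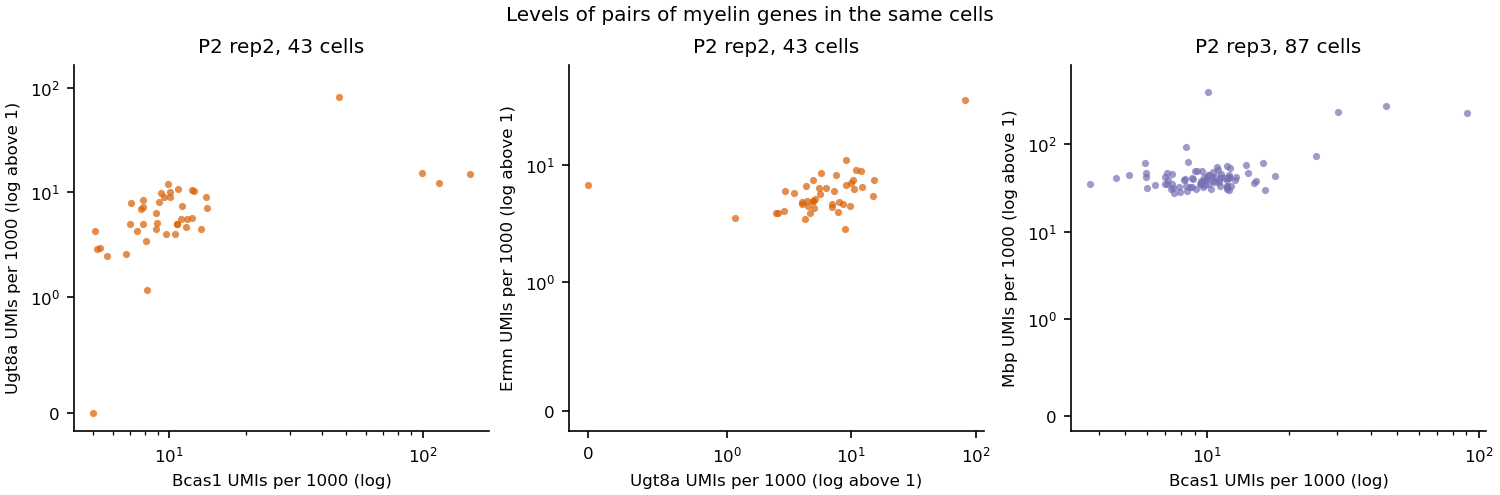
Levels of pairs of genes in the same cells, in UMIs per 1000 UMIs of the cell (both axes logarithmic, with 0 shown on axes marked log above 1), with 1 point per cell. In the left and middle panels 1 cell of replicate 2 lies at the upper right, and in the right panel 3 cells of replicate 3 are high in both Bcas1 and Mbp and 1 in Mbp alone.

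The number of cells with both Ugt8a and Ermn was compared with the product of their shares. For panel 1 of replicate 1, 26 cells had both Ugt8a and Ermn, against 19.2 by the product of the shares, and with cells thinned to 35 UMIs the numbers were 3 and 3.04. With at least 2 UMIs of each, 4 cells had both, against 0.64 by the product. Thinned cells of panel 2 of replicate 2 had both in 3, against 0.837 by the product. In panel 2 of replicate 3, 12 cells had both, against 10.5 by the product. At full depth replicate 2 had both in 42 cells, against 42 by the product, and 0 thinned cells of replicate 3 had both. Most of these counts are small, and the ratio to the product changed with the library and the limit. All 4 members were found in 12 of 87 cells of panel 2 of replicate 3, 3 of them in 37 and 2 of them, Bcas1 and Mbp, in 38. All 3 members were found in 42 of 43 cells of replicate 2 and in 26 of 950 cells of panel 1 of replicate 1, where 29 cells had none.

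Among all other genes of a library found in at least 10% of cells, those most like each member by the same r were often other members in panel 2 of replicates 2 and 3. For Mbp in replicate 3 the first 3 of 110 genes were Bcas1, Ugt8a and Ermn. For Bcas1 there they were Mbp, Ugt8a and Camk2n1 (0.30), for Ugt8a they were Bcas1, Mbp and Zfp975 (0.18), and for Ermn they were Mbp, Sox2 (0.29) and Zfp975 (0.28). In replicate 2 the first 3 of 85 included Ugt8a and Fgfr2 (0.54) for Bcas1 and Sox8 (0.71) and Bcas1 for Ugt8a, and they were Fgfr2 (0.69), Ugt8a and Vamp1 (0.56) for Ermn. Sox8 encodes a transcription factor of the oligodendrocyte lineage. By ranks of shares in place of log counts, no member was among the first 3 for another in replicate 3: for Mbp, Bcas1 was 5, Ugt8a 8 and Ermn 46 of 110, for Bcas1, Mbp was 8 and Ugt8a 9, for Ugt8a, Mbp was 4 and Bcas1 5, and for Ermn, Mbp was 54. In replicate 2 Bcas1 and Ugt8a were 3 for each other, and Ugt8a was 3 for Ermn.

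Elsewhere the likeness was weak or lay with other genes. Within panel 1 of replicate 1 the highest r of any of 90 genes was 0.10, for Ermn with Bmp4, followed by Lef1 (0.09) and Insr (0.07). Bcas1 had Unc13c (0.07), Gja1 (0.04) and Enkur (0.01) first there, and Ugt8a had Crym (0.08), Slco1c1 (0.07) and Frzb (0.06). Most of these places changed by ranks of shares. For Ermn, Bmp4 was then 14, Lef1 22 and Insr 19 of 90, and for Bcas1, Unc13c was 31, Gja1 6 and Enkur 40. For Ugt8a, Frzb was 1 and Crym 2, both with a rank correlation of 0.17, and Slco1c1 was 70. In panel 2 of replicate 1 Bcas1 was most like Stmn2 (0.43), Gja1 (0.37) and Bhlhe41 (0.33) of 40 genes. By ranks there, Stmn2 was 8, Gja1 1 and Bhlhe41 5. Within panel 1 of replicate 3 Mag was most like Mt1 (0.29), Nts (0.28) and Cx3cr1 (0.26) of 19 genes, and least like C1qa (-0.61). Mobp was most like Olig1 (0.29), Gng8 (0.27) and Snap25 (0.23). The first 3 genes of Mag and of Mobp kept their places by ranks. Olig1, a transcription factor of the oligodendrocyte lineage, was in 57.7% of cells of that library and in 4.00% in replicate 2, where Mobp was at 0.

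The other measured genes of the lineage ranged from 0 to all cells of a library. Cspg4 was found in 97.7%, 100% and 100% of the panel 2 cells in replicates 1, 2 and 3, and in 90.9% in panel 1 of replicate 1. Fyn, a kinase of the lineage that other cells also use, was in 0%, 100% and 100% and in 24.5%. Bmp4, expressed as oligodendrocytes form, was in 0%, 0% and 48.3% and in 14.7%. Pdgfra, the growth factor receptor of precursors, was in 100% and 94.2% of cells of panel 1 of replicates 2 and 3. Fyn and Bmp4 were thus at 0, like Ugt8a and Ermn, in panel 2 of replicate 1. Only 50 of 265 genes were detected in that library, so being at 0 there was not particular to these genes. In replicate 2 Bmp4 was at 0 while Ugt8a and Ermn were not.

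Cells with UMIs of neuron markers had the members as well. Of the 6 neuron markers measured in the larger set, 5 were detected in panel 1 of replicate 1 (all but Syt1), 1 in panel 2 of replicate 1 (Stmn2), 0 in replicate 2 and 1 in replicate 3 (Gad2), and their summed level ran from 0 to 15.6 UMIs per 1000. Of the 4 in the smaller set, 1 was detected in replicate 2 and 2 in replicate 3 (Snap25 and Slc17a6), at 0.116 and 2.80 per 1000. Over all genes, the larger set had 157 of 265, 50 of 265, 93 of 265 and 120 of 266 detected, in the same order of libraries. The smaller set had 14 and 27 of 75. The numbers of neuron markers detected are therefore no measure of neuron content. Of the cells from panel 1 of replicate 1, 257 had a UMI of a measured neuron marker and 693 had none, with median depths of 126 and 42 UMIs. Bcas1 was in 98.4% of cells with a neuron marker and 95.7% of those without, and the median levels were 49 and 48.4 UMIs per 1000. Ermn was in 30.0% of cells with a neuron marker and 13.3% of those without, and in 8.23% and 8.96% once thinned to 35 UMIs. At equal depth the shares were therefore close.

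In the deeper libraries Mbp and Mag were in all cells with and without a neuron marker, and their levels differed by measure. In panel 2 of replicate 3 the 68 cells with a neuron marker had a median Mbp level of 39.3, against 42 in the 19 without, with median depths of 1156 and 876 UMIs. Summed over cells, the Mbp level was 78 in the 68 cells and 41.7 in the 19, and all 4 Mbp-high cells had Gad2. In panel 1 of replicate 3 Mag was in all of the 88 cells with a neuron marker and all of the 16 without, with median depths of 742.5 and 561 UMIs. The median Mag level was 7.75 in the 88 cells and 5.9 in the 16, and thinned to 35 UMIs Mag was in 31.8% and 12.5%. Mobp was in 70.5% of the 88 cells and 18.8% of the 16, with wide intervals of 59.8 to 79.7 and 4.05 to 45.6. Neurons do not make myelin, so these shares give the level at which a member is found in cells carrying markers of another type. Whether such UMIs came from RNA free in the suspension or from mixed barcodes was not tested.

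Besides these libraries, 21 barcodes stood in tables of 2 replicates, so their capture is unknown and they were left out of all values above. Their table had the 290 amplicon names without Mbp, and their counts fitted the names only up to the place in alphabetical order where Mbp would stand. Before that place, the mean log counts of 147 amplicons correlated with those of panel 2 of replicate 3 with r of 0.668 across amplicons, which are not independent. After it, r over 143 amplicons was 0.00252 by the names and 0.519 with the counts read 1 column over. With panel 2 of replicate 2 these were 0.643, 0.0387 and 0.572.

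Read 1 column over, the column in the place of Mbp held 4104 UMIs, 171 per 1000 of the 23969 UMIs of these barcodes, in 21 of 21 barcodes. The median barcode had 73 Mbp UMIs and the highest 754, and the median level was 270 per 1000, with a range of 24.5 to 912. One barcode held 16922 of the UMIs and had the lowest Mbp level. Without it the other 20 barcodes had 3689 Mbp UMIs of 7047, or 523 per 1000, so this barcode decides the summed level. The names before the place of Mbp need no such step: Bcas1 was in 20 of 21 barcodes at 50.6 UMIs per 1000 and Ermn in 14 of 21 at 6.51. Ugt8a, which stands after it, was in 17 of 21 at 10.1 with the same reading. The totals ran from 34 to 16922 UMIs, and the deepest barcode held 986 of 1213 Bcas1 UMIs, without which Bcas1 was at 32.2 per 1000.

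**Figure D5:**
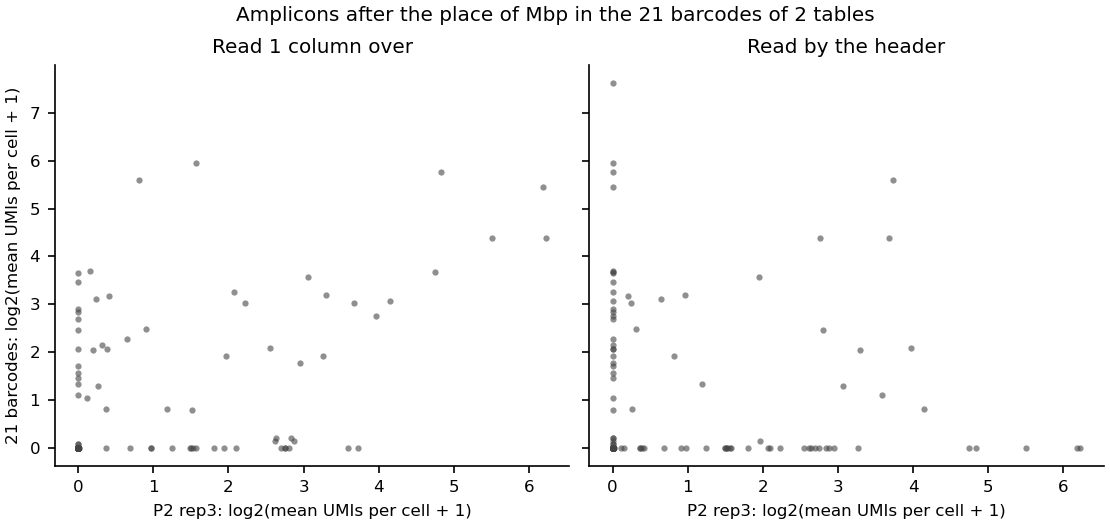
Mean UMIs per barcode of the 143 amplicons after the place of Mbp in the 21 barcodes (vertical axis, log2 of the mean plus 1) against panel 2 of replicate 3 (horizontal axis, same scale), with 1 point per amplicon, read 1 column over on the left and by the deposited names on the right. The left panel has r of 0.519 and the right panel 0.00252.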

How the data were processed

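The 3 captures of pooled hypothalami were each read with 2 primer panels, which gave 6 tables. The authors deposited UMI counts for every cell and amplicon, and the file headers record no normalization. The pipeline was BD Targeted Rhapsody Analysis Pipeline, per the file headers, in version 1.3 (replicate 1, panel 1) or 1.5 (the rest). The table names mark the counts as corrected by recursive substitution of faulty UMIs. The submitters' processing notes give mm9 as the build. The aligner and the rule for calling cells were not given in the sources used here.

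Amplicons of a gene were summed. Barcodes that stood in several tables were used once for each gene set they carried, and 21 that appeared under 2 replicates were set aside. Barcodes under 20 UMIs or 5 genes were left out, which took 605 of the 1555 barcodes of panel 1 of replicate 1. No doublets were called. Totals of the kept cells were 105772 and 11423 UMIs in panels 1 and 2 of replicate 1, 25964 and 79560 in replicate 2, and 76898 and 109452 in replicate 3. Between the panels of a capture, 0 (replicate 1), 0 (replicate 2) and 2 (replicate 3) cell indices were shared, too few to join cells.

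The members and gene lists were chosen with earlier results of these data known. The named genes are the 6 members, measured genes of the oligodendrocyte and precursor lists, the 3 genes most like each member in each library of at least 40 cells, of each other cell type list the measured gene in most cells (given where a result turns on it), and the most abundant gene of each library. Results for certain genes are not reported here. Thinning used 35 UMIs per cell. Correlations used 1 added to scaled counts before log2. The shares and levels were recomputed with other barcode minimums, detection at 2 UMIs, thinning, other denominators and averages, without the deepest 5% of cells, without each replicate, and with the 21 barcodes. The alternatives without the top barcode, by median over cells, with columns read 1 over, and without high barcodes were added after seeing the data. The calculations, tested on simulated data, used Python 3.11.15, numpy 2.4.6, pandas 2.3.3, scipy 1.17.1 and matplotlib 3.10.9.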

Additional observations from a re-analysis of the deposited data

Results flagged for a closer look

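Mbp was read in data that no comparison used. In the 21 barcodes found in tables of 2 replicates, the column in the place of Mbp, read 1 column over from its deposited name, held 171 UMIs per 1000 (523 without the deepest barcode), above the limit that a count of 0 allows. These barcodes have no control samples and no known capture, and 17 of them had counts, 149 UMIs in all, in the 291st column, beyond the 290 named amplicons of that set. Their Mbp level was above the 72 per 1000 of panel 2 of replicate 3; this difference was not tested.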

How the results depend on the processing

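No paired analysis was possible because no value comes from a test: the panels of replicates 2 and 3 count different members, and replicate 1 alone has both panels with Bcas1, Ugt8a and Ermn. Of 155 recomputed values of 18 shares and levels, 117 moved by less than the spread between captures or the counting interval, and 38 moved by more. The 117 include the values without each replicate, which could not have moved by more. For 65 recomputed correlations and co-detections the numbers were 36 and 29. The correlation of Bcas1 and Ermn in panel 2 of replicate 3, 0.11, became -0.12 by ranks and -0.18 without the deepest 5% or without the high cells. Values without each replicate stayed within the SD over captures, which holds by construction with 2 or 3 captures and shows no stability. That SD exceeded the mean for Ugt8a and Ermn and was near it for Bcas1. In panel 2 the mean level was 19.3 to 59.4 for Bcas1 (lowest without replicate 1). It was 0.297 to 9.03 for Ugt8a and 0.416 to 5.31 for Ermn (both lowest without replicate 2). The mean shares without replicate 2 were 14.9% for Ugt8a and 20.1% for Ermn, and 63.8% and 70.1% without replicate 1. The Mobp mean rests on replicate 3, with a level of 1.64 without replicate 2 and 0 without replicate 3. In panel 1 of replicate 1, Bcas1, Ugt8a and Ermn were in 85.1%, 7.67% and 11.9% of barcodes with no minimum, 99.6%, 17.8% and 27.4% with at least 50 UMIs, 74.4%, 2.00% and 3.37% at 2 UMIs, and 84.2%, 5.43% and 8.70% thinned. Its Bcas1 level was 62.9 with no minimum, 56.1 with at least 50 UMIs, 63.7 without the next most abundant gene, 79.8 as a mean and 48.6 as a median over cells, and 71.9 without the deepest 5%. Ugt8a there was 2.26 as a mean over cells, and the medians of Ugt8a and Ermn were 0. The mean share of Bcas1 in panel 2 was 98.5% at 2 UMIs, 48% thinned and 99.5% with the 21 barcodes, by name or read 1 column over. Mbp was in 80.5% of thinned cells, and its level was 79.9 without Fcer1g, 52.3 as a mean and 39.6 as a median over cells, 40.8 without the deepest 5% and 64.6 without the top barcode. The mean share of Mag was 96.6% at 2 UMIs and 30.4% thinned, and its mean level was 96.8 without C1qa, 7.50 by medians, 8.54 without the deepest 5% and 8.44 without the top barcodes. The mean Mobp level was 11.2 without C1qa. Fewer counts per cell and another denominator move these values by construction; the cause was otherwise not tested. The 44 cells of panel 2 of replicate 1 limit a share at 0 to 6.82%, and the 25 of panel 1 of replicate 2 to 12%.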
